A study of Saccharomyces cerevisiae with 6 samples.

Results

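The genes described here are 60 budding yeast open reading frames (ORFs) whose standard name is UTP, NOP, RRP, NOC, ESF or NSA followed by a number. They were picked by name alone from 5871 ORFs of the coverage table that matched a protein-coding gene, and comprise 18 UTP, 18 RRP, 17 NOP, 3 NOC, 2 ESF and 2 NSA genes. All 60 passed the filter on low values and were among the 5211 genes tested. Poly(A) RNA was sequenced, with 2 libraries of each strain, from wild type, from a strain without RTT109 (rtt109Δ) and from one without HST3 and HST4 (hst3Δ hst4Δ). Whether replicates came from separate cultures is not stated, so p-values measure the spread between libraries, which may be technical. Cells grew exponentially in YPD, a rich medium, and their total RNA was mixed with fission yeast RNA at a mass ratio of 10 to 1 as a spike-in.

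All strains carried the markers his3-11 15, leu2-3 112 and trp1-1 with ura3-1 and can1-100. They shared the thymidine kinase insert URA3::GDP-TK(7x), a nucleoside transporter at AUR1c (ADH-Hent1, spelled ADH-hENT1 for the rtt109 strain) and a deletion of BAR1. The wild type was MATa with ade2-1::ADE2 and Rpb3-3HA::TRP, a tagged subunit of RNA polymerase II. The hst3 hst4 strain carried the same alleles with Δhst3::HygMX and Δhst4::NatMX, but is labelled MATalpha. The rtt109 strain was MATa ade2-1 with ∆rtt109::Kan, is labelled GAL psi+ RAD5+, and is not labelled with the ADE2 insert or the polymerase tag. The named deletions and these other differences cannot be told apart here. Rtt109 places an acetyl group on the core of newly made histone H3, and Hst3 and Hst4 remove it. Coverage at the deleted genes followed the labels. RTT109 was at 0.763 and 0.830 in wild type and at 0.00123 and 0.00342 in its deletion. In the hst3 hst4 deletion HST3 was at 0.0131 and 0.00999, against 1.32 and 1.36 in wild type, and HST4 at 0.0617 and 0.00648, against 0.470 and 0.672.

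Ribosome biogenesis begins in the nucleolus, where RNA polymerase I makes a long precursor of the ribosomal RNAs. UTP proteins join the U3 small nucleolar RNA on the nascent precursor and build the small-subunit processome, within which ESF factors and several NOP and RRP proteins also work. Nucleolar RNA-protein particles (snoRNPs) modify the precursor, the exosome trims it, and NOC2, NOC3, NSA and other NOP and RRP proteins assemble the large subunit. In yeast the genes of this pathway form a regulon that follows growth rate and nutrients and is turned down in stress. Many of their promoters hold a PAC element, bound by the repressors Dot6 and Tod6, and an RRPE element, bound by Stb3.

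These elements were common among the 60 genes. In the 250 bases before the start codon, PAC (GATGAG, read on both strands) was found in 48 of 60 promoters (80%), against 16.9% of the 5211 promoters of all genes tested. RRPE (AAAAATTT, both strands) was found in 45 of 60 (75%), against 14.7%. Both were present in 36 of 60 (60%), against 5.66%. RRP45, RRP46 and UTP22 held neither. Overlapping matches were counted separately. Stretches of the promoters of 6 members follow, from the RefSeq R64 genome and on the strand of the gene. They are the members with the smallest rtt109 p-values among those with a match and with both rtt109 libraries below both wild-type libraries, and capitals mark PAC and RRPE matches.
UTP8: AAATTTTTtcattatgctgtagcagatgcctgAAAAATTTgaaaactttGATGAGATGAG
RRP9: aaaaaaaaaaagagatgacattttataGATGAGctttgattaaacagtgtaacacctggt
RRP8: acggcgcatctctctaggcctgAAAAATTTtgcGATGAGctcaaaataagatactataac
RRP1: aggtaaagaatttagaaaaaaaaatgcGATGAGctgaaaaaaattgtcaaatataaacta
NOC2: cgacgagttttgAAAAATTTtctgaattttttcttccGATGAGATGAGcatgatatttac
UTP4: aaaaccaaatgAAAAATTTtcagactgaca

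The UTP8 stretch is chrVII:750176-750235 on the minus strand, from 144 to 85 bases before the start codon, and holds 4 matches, of which the PAC pair at its end shares a G. The RRP9 stretch is chrXVI:802212-802271 (plus strand) and holds 1 match. RRP8 is shown at chrIV:611953-612012 (plus strand), where an RRPE and a PAC element stand side by side. RRP1 is shown at chrIV:618393-618452 (minus strand) with 1 PAC match. The NOC2 stretch, chrXV:727349-727408 (plus strand), holds 3 matches with the same overlapping PAC pair as UTP8. UTP4, at chrIV:1116779-1116808 (minus strand), had no PAC match in its 250 bases and an RRPE match 27 bases before the start codon. Over all members, 73 PAC matches had a median distance of 114 bases from the start codon, and 76.7% lay between 51 and 150 bases. Over all genes 55.9% of 1048 PAC matches lay in that band. Matches are letters in a window and say nothing on whether a factor was bound.

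**Figure D1:**
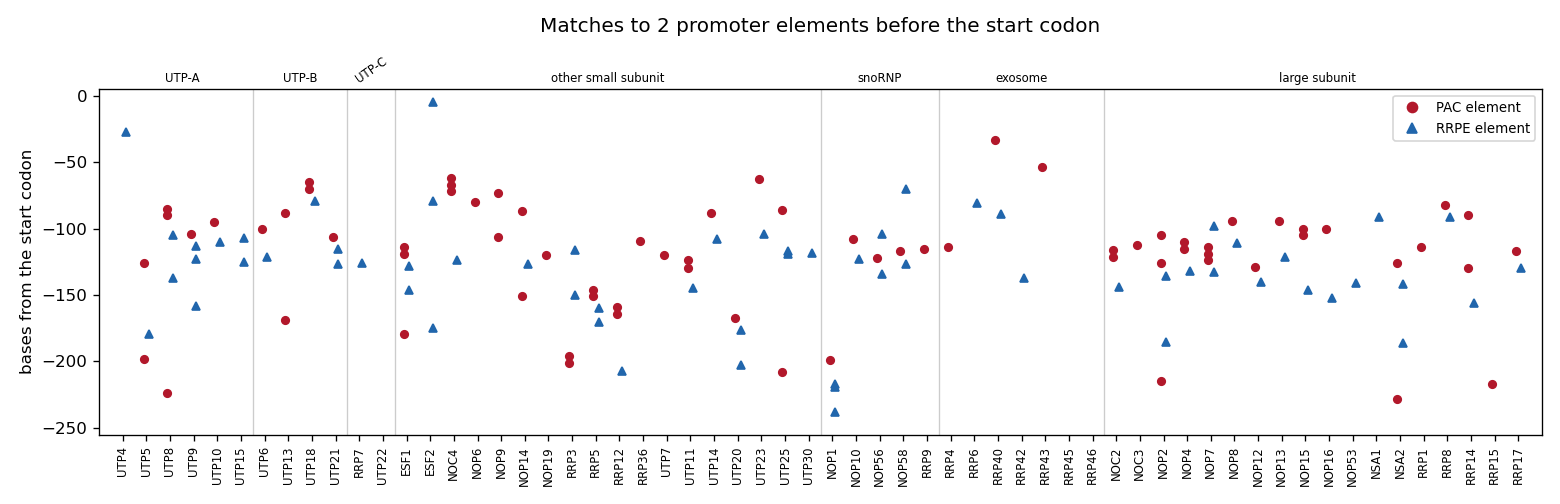
Matches to PAC (circles) and RRPE (triangles) for each of the 60 genes, grouped by role on the x axis, with the distance in bases from the start codon on the y axis (negative is upstream). The PAC matches cluster around a median of 114 bases, and the columns of RRP45, RRP46 and UTP22 are empty.

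In wild type the coverage of the 60 genes was mostly above that of the median gene. Values are mean sense coverage per 50-base bin on the authors' spike-in scale, a level per length. The median member stood at 3.92 (mean of the wild-type libraries) against 1.71 for all genes tested. The highest was NOP10 (YHR072W-A), a small core protein of the snoRNPs that make pseudouridine. Its coverage was 95.0 and 61.7 in wild type, 36.5 and 62.5 in rtt109Δ and 66.1 and 29.5 in hst3Δ hst4Δ. NOP10 rests on 2 bins, and its replicates spread widely in every strain. NOP56 (YLR197W), a core protein of the snoRNPs that methylate ribosomal RNA, came next at 25.2 and 44.8 in wild type, 15.4 and 21.5 in rtt109Δ and 29.1 and 16.3 in hst3Δ hst4Δ. The third, NOP15 (YNL110C), an RNA-binding factor of the large subunit, stood at 28.7 and 26.3, then 9.30 and 19.9, then 21.2 and 11.9 in the same order. At the low end UTP30 (YKR060W) was at 0.844 and 0.629 in wild type, 0.577 and 0.458 in rtt109Δ and 1.05 and 0.460 in hst3Δ hst4Δ. UTP20 (YBL004W), a very long processome protein, stood at 0.946 and 1.37, then 0.539 and 1.43, then 0.939 and 0.980. The UTP20 mean rests mostly on the last part of its ORF, as described below. The part of this in its low rank was not tested. NOP19 (YGR251W), a small-subunit factor, was at 0.752 and 1.73, then 0.743 and 0.782, then 1.20 and 1.48. By role, the median wild-type level ran from 2.50 for UTP-B to 19.9 for the 5 snoRNP proteins, with 7.19 for the 18 large-subunit factors and 3.48 for the 7 exosome subunits.

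**Figure D2:**
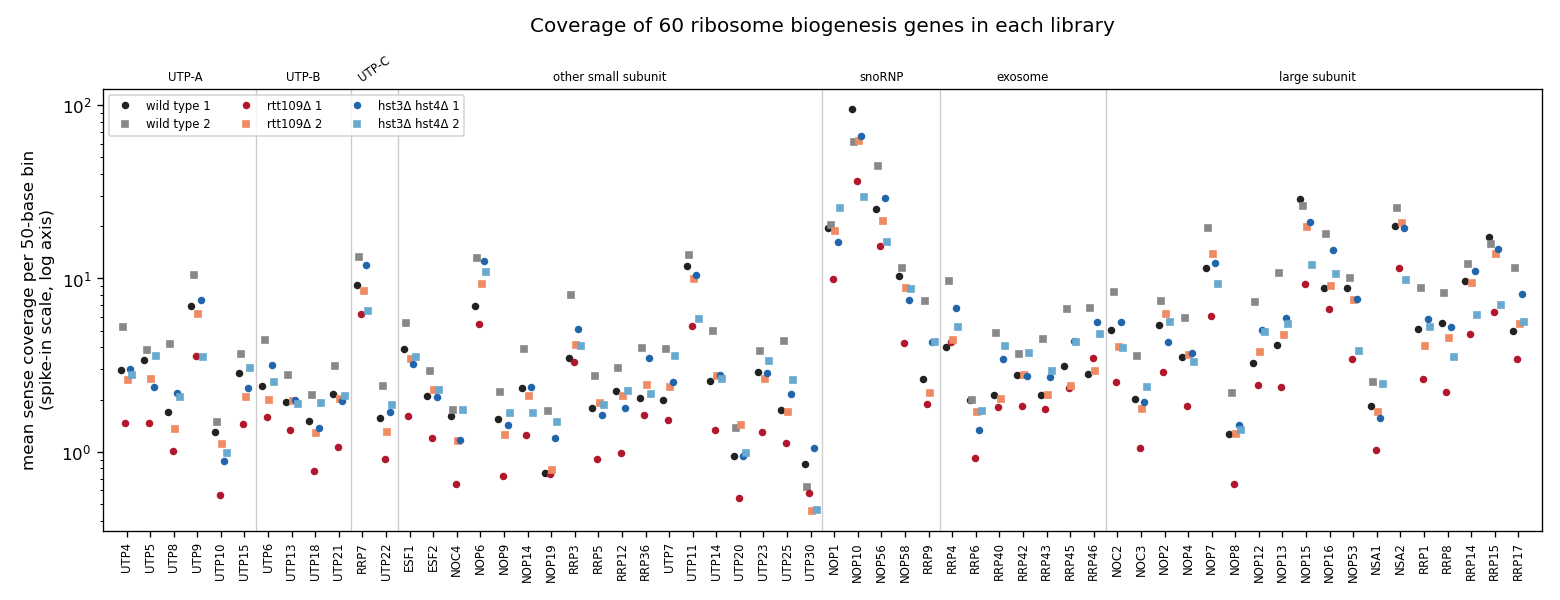
Mean sense coverage per 50-base bin (y axis, log scale, spike-in scale) of each of the 60 genes (x axis, grouped by role) in each of the 6 libraries, one point per library. NOP10 stands highest, from 29.5 to 95.0, and for most genes wild-type library 2 is the top point and rtt109Δ library 1 the bottom one.

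In rtt109Δ all 60 genes had a lower mean than in wild type, by a median of −0.80 on the log2 scale, but none passed the threshold. The test was limma with an adjusted p under 0.05 (Benjamini-Hochberg over 5211 genes), which called 3.44% of all genes (130 higher and 49 lower). The lowest adjusted p among the 60 was 0.102. The median of all genes was also below 0, at −0.37, and 59 of the 60 members lay below it, all but UTP20. Taken without adjustment, 33 of 60 had a p under 0.05 with a lower value, against 14.4% of all genes. That count, and with it the counts by role and family, depends on the scale and on single libraries. It was 0 on the authors' mean-1 scale (1.77% of all genes), 5 with each library centred on its median (4.18%), 4 with quantile normalization (4.55%) and with cyclic loess (3.13%), 7 without the filter on low values (10.8%) and 17 with a pseudocount 10 times larger (10.9%). It was 42 without wild-type library 1 (18.9%), 2 without wild-type library 2 (4.59%), 0 without rtt109Δ library 1 (1.54%) and 36 without rtt109Δ library 2 (13.8%). Both rtt109Δ libraries lay below both wild-type libraries for 36 of 60 members, against 48.6% of all genes, and for none of the 60 were both above. Ordered from the lowest fold change of all genes tested, the median member ranked at 11.7%. Since total RNA was mixed at a fixed mass ratio, a lower value on the spike-in scale can reflect less of the transcript, less poly(A) RNA within total RNA, or an error in mixing, which cannot be told apart.

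The UTP-A proteins, the first to bind the nascent precursor, had the lowest median of the groups by role, at −0.88. UTP4, UTP5, UTP8, UTP9, UTP10 and UTP15 had log2 fold changes from −1.15 to −0.77. All 6 had an unadjusted p under 0.05, against 14.4% of all genes with a lower value. UTP8 (YGR128C) had the lowest value of the 60. Its coverage was 1.69 and 4.21 in wild type, 1.01 and 1.35 in rtt109Δ and 2.19 and 2.06 in hst3Δ hst4Δ. The rtt109Δ libraries lay below both wild-type libraries, and the wild-type libraries themselves were far apart. The log2 fold change against wild type was −1.15 ± 0.39 (SE; limma adjusted p = 0.102) in rtt109Δ and −0.32 ± 0.39 (adjusted p = 1.00) in hst3Δ hst4Δ. UTP9 (YHR196W) had the lowest hst3Δ hst4Δ value of the UTP family. It was at 6.90 and 10.4 in wild type, 3.57 and 6.24 in rtt109Δ and 7.48 and 3.52 in hst3Δ hst4Δ. One hst3Δ hst4Δ library was below wild type and the other within it. The log2 fold changes came to −0.84 ± 0.39 (adjusted p = 0.234) and −0.72 ± 0.39 (adjusted p = 0.757).

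The UTP-B subcomplex, which joins after UTP-A, ranged from −0.85 (UTP6) to −0.52 (UTP13) in rtt109Δ, with UTP18 and UTP21 between. In UTP-C, UTP22 had −0.81 and RRP7 −0.60. Among the 18 other small-subunit factors the median was −0.76, and 9 had an unadjusted p under 0.05 (14.4% of all genes). ESF1 (YDR365C), a processome factor, was at 3.89 and 5.56 in wild type, 1.60 and 3.45 in rtt109Δ and 3.19 and 3.51 in hst3Δ hst4Δ. Both mutants lay below wild type in every library, with log2 fold changes of −0.97 ± 0.38 (adjusted p = 0.166) and −0.47 ± 0.38 (adjusted p = 1.00). ESF2 (YNR054C), which works with the helicase Dbp8, was at 2.09 and 2.91, then 1.20 and 2.27, then 2.07 and 2.29 in the same order, so the groups overlapped. Its log2 fold changes came to −0.56 ± 0.38 (adjusted p = 0.368) and −0.18 ± 0.38 (adjusted p = 1.00). NOC4 (YPR144C), the partner of NOP14, was at 1.61 and 1.74 in wild type, 0.653 and 1.15 in rtt109Δ and 1.17 and 1.74 in hst3Δ hst4Δ. Its rtt109Δ fold change was −0.90 ± 0.37 (adjusted p = 0.183), and the hst3Δ hst4Δ value was −0.22 ± 0.37 (adjusted p = 1.00).

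Other small-subunit factors stood at the upper end. UTP20 had the smallest rtt109Δ change of the 60, at −0.34 ± 0.39 (adjusted p = 0.584), with rtt109Δ library 2 above both wild-type libraries; its hst3Δ hst4Δ value was −0.23 ± 0.39 (adjusted p = 1.00). NOP6 (YDL213C), an early small-subunit factor, was at 6.90 and 13.2 in wild type, 5.45 and 9.26 in rtt109Δ and 12.6 and 10.9 in hst3Δ hst4Δ. Its log2 fold changes came to −0.42 ± 0.38 (adjusted p = 0.499) and 0.30 ± 0.38 (adjusted p = 1.00), the latter the highest of the 60. UTP7 (YER082C), a scaffold of the processome, was at 1.98 and 3.91, then 1.52 and 2.37, then 2.54 and 3.59, with fold changes of −0.54 ± 0.39 (adjusted p = 0.393) and 0.11 ± 0.39 (adjusted p = 1.00). For NOP6 and UTP7 each mutant overlapped wild type. UTP30 had −0.46 ± 0.38 (adjusted p = 0.460) and −0.06 ± 0.38 (adjusted p = 1.00), and NOP19 −0.55 ± 0.38 (adjusted p = 0.384) and 0.21 ± 0.38 (adjusted p = 1.00).

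The 5 snoRNP proteins had a median of −0.82 in rtt109Δ. RRP9 (YPR137W), which binds the U3 RNA, was at 2.64 and 7.45 in wild type, 1.88 and 2.19 in rtt109Δ and 4.30 and 4.28 in hst3Δ hst4Δ. The rtt109Δ libraries were below all others, and the wild-type libraries lay on either side of the hst3Δ hst4Δ pair. Its log2 fold changes came to −1.11 ± 0.40 (adjusted p = 0.123) and −0.05 ± 0.40 (adjusted p = 1.00). NOP56 had −0.89 ± 0.39 (adjusted p = 0.203) and −0.62 ± 0.39 (adjusted p = 0.898), and NOP10 had −0.68 ± 0.40 (adjusted p = 0.315) and −0.79 ± 0.40 (adjusted p = 0.643). NOP1, the methyltransferase of the same particles as NOP56, had −0.54 and 0.03.

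The exosome subunits had the smallest rtt109Δ median of the roles, −0.65. Of the 7, 1 (RRP45) had an unadjusted p under 0.05, against 14.4% of all genes with a lower value. RRP46 (YGR095C), a protein of the exosome ring, was at 2.82 and 6.76 in wild type, 3.47 and 2.92 in rtt109Δ and 5.58 and 4.75 in hst3Δ hst4Δ. The wild-type libraries enclosed all others. The log2 fold changes came to −0.45 ± 0.39 (adjusted p = 0.474) and 0.23 ± 0.39 (adjusted p = 1.00). RRP6, the nuclear exonuclease of the exosome, was at 2.00 in both wild-type libraries, 0.925 and 1.69 in rtt109Δ and 1.34 and 1.72 in hst3Δ hst4Δ, below wild type in every mutant library. Its fold changes came to −0.65 and −0.38.

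Among the 18 large-subunit factors the rtt109Δ median was −0.81, and 10 had an unadjusted p under 0.05 (14.4% of all genes). RRP8, a methyltransferase of the large ribosomal RNA, had −1.08 and RRP1, another large-subunit factor, −1.02. NOC2 (YOR206W), which pairs with NOC3 on the precursor of the large subunit, was at 5.05 and 8.37 in wild type, 2.51 and 4.01 in rtt109Δ and 5.59 and 3.98 in hst3Δ hst4Δ. The rtt109Δ libraries were below wild type and the hst3Δ hst4Δ libraries spanned its lower value, with log2 fold changes of −1.02 ± 0.38 (adjusted p = 0.141) and −0.46 ± 0.38 (adjusted p = 1.00). NOC3 (YLR002C) was at 2.02 and 3.57, then 1.05 and 1.76, then 1.94 and 2.37, and had −0.95 ± 0.38 (adjusted p = 0.170) and −0.32 ± 0.38 (adjusted p = 1.00). NOP15 was below wild type in all 4 mutant libraries, with −1.01 ± 0.39 (adjusted p = 0.157) and −0.79 ± 0.39 (adjusted p = 0.625).

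NOP53 (YPL146C), which brings the helicase Mtr4 to the precursor, had the lowest hst3Δ hst4Δ value of the 60. It was at 8.85 and 10.05 in wild type, 3.42 and 7.53 in rtt109Δ and 7.64 and 3.80 in hst3Δ hst4Δ. All mutant libraries were below wild type, with log2 fold changes of −0.88 ± 0.40 (adjusted p = 0.216) and −0.80 ± 0.40 (adjusted p = 0.628). RRP15 (YPR143W), a large-subunit factor, was at 17.3 and 15.8, then 6.44 and 13.9, then 14.8 and 7.03, again with no overlap. Its fold changes came to −0.80 ± 0.40 (adjusted p = 0.253) and −0.69 ± 0.40 (adjusted p = 0.819). NSA1 (YGL111W), found with precursors of the large subunit, was at 1.84 and 2.51, then 1.02 and 1.69, then 1.57 and 2.47, with −0.69 ± 0.38 (adjusted p = 0.292) and −0.12 ± 0.38 (adjusted p = 1.00). NSA2 (YER126C), which acts on the same subunit, was at 20.2 and 25.6, then 11.5 and 20.9, then 19.5 and 9.75, with −0.55 ± 0.39 (adjusted p = 0.390) and −0.72 ± 0.39 (adjusted p = 0.744). NSA1 overlapped wild type in hst3Δ hst4Δ and NSA2 in rtt109Δ.

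**Figure D3:**
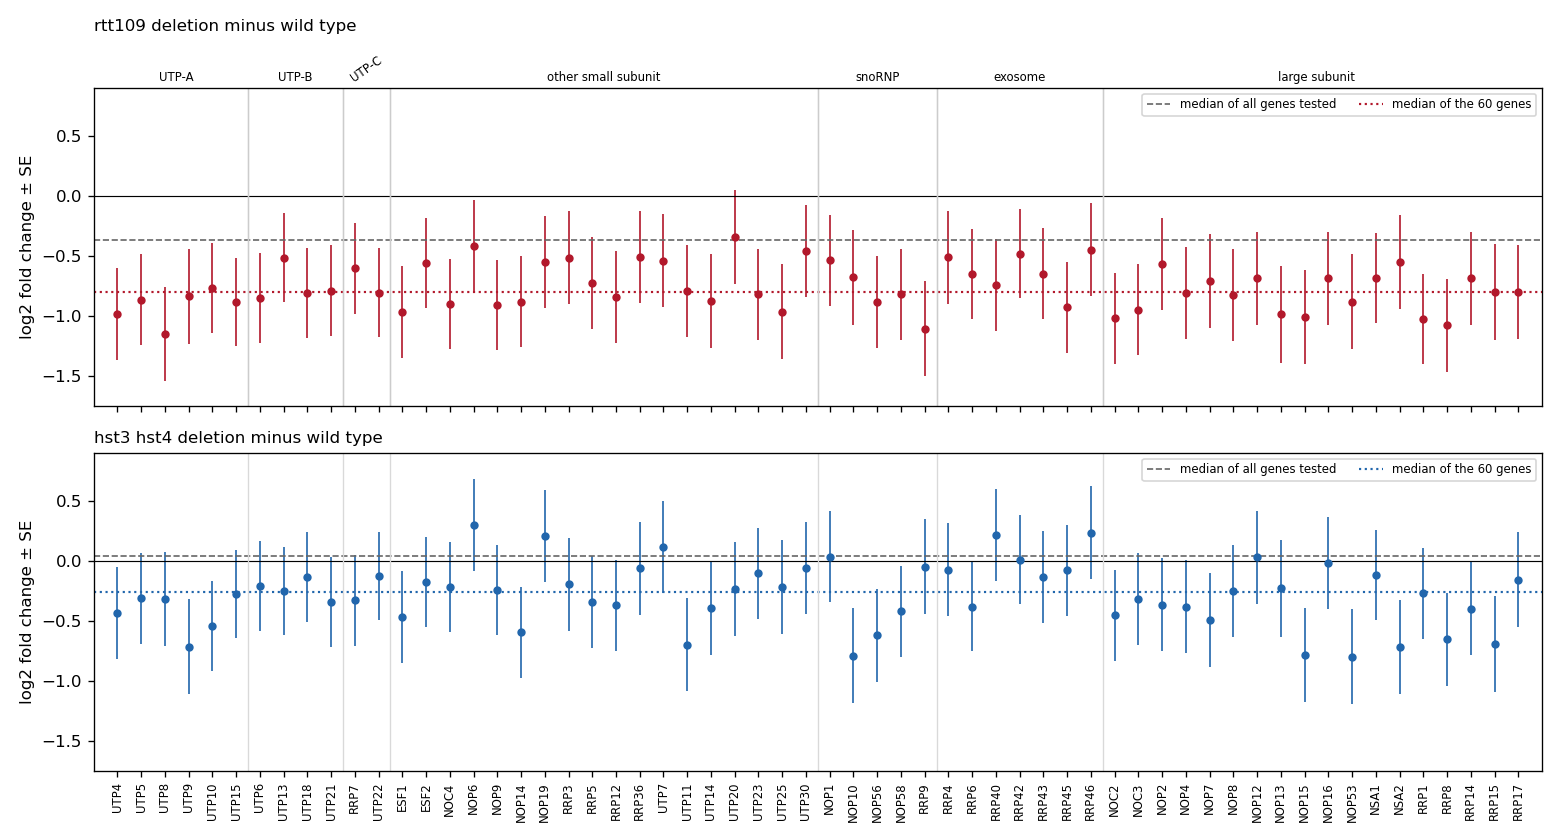
Log2 fold change of each of the 60 genes (x axis, grouped by role) in rtt109Δ (top) and hst3Δ hst4Δ (bottom) against wild type, with bars for the standard error from limma; the dashed line is the median of all genes and the dotted line that of the 60. In the top panel the points run from −1.15 to −0.34 and only UTP20 lies above the dashed line, while in the bottom panel they run from −0.80 to 0.30.

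Against wild type hst3Δ hst4Δ gave a smaller shift, with a median of −0.26 for the 60 members and 0.04 for all genes. Of the 60, 52 were below 0 and 55 below the median of all genes. None was called, where limma called 2.48% of all genes (122 higher and 7 lower), and none had an unadjusted p under 0.05. The lowest adjusted p was 0.625. The unadjusted count depends on the scale. With a lower value it was 6 with each library centred on its median (1.73% of all genes). It was 7 with quantile normalization (2.05%) and with cyclic loess (1.71%), 4 with the median over bins (1.82%) and 1 on the mean-1 scale (0.94%). Without the filter on low values it stayed at 0 (0.60%). Both hst3Δ hst4Δ libraries lay below both wild-type libraries for 11 of 60 members, against 8.9% of all genes, and above them for none. The 11 were ESF1, NOP15, NOP53, NOP58, NSA2, RRP6, RRP8, RRP15, UTP10, UTP11 and UTP21.

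The mutants were also compared with each other. The members' median difference, hst3Δ hst4Δ minus rtt109Δ, was 0.49, close to the 0.41 of all genes, and 58 of 60 were above 0. None was called, against 1.38% of all genes, and the lowest adjusted p was 0.207. Without adjustment 4 members had a p under 0.05 with a higher value (13.3% of all genes): RRP9 (1.06 ± 0.40), RRP40 (0.95 ± 0.38), RRP45 (0.85 ± 0.38) and UTP8 (0.83 ± 0.39). Both hst3Δ hst4Δ libraries lay above both rtt109Δ libraries for 26 of 60, against 51.1% of all genes. In the 2 comparisons with wild type the same wild-type libraries serve as control, so their values are not independent.

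The 6 libraries did not weigh equally in these values. Wild-type library 2 was the highest of the 6 for 53 of 60 members, against 30.5% of all genes, and rtt109Δ library 1 the lowest for 54 of 60, against 55.0%. Wild-type library 2 exceeded library 1 by a median of 0.59 over the members and 0.22 over all genes. Between the rtt109Δ libraries the members differed by 0.75 (library 2 minus library 1) and all genes by 0.29. Between the hst3Δ hst4Δ libraries the differences were −0.08 and −0.11. In both wild type and rtt109Δ, then, the members differed more between replicates than the median gene did. As single pairs, rtt109Δ minus wild type had member medians of −0.90, −1.40, −0.12 and −0.71, for library 1 against wild-type libraries 1 and 2 and library 2 against the same. The corresponding medians of all genes were −0.37, −0.63, −0.07 and −0.32. For hst3Δ hst4Δ minus wild type the 4 member medians were 0.05 and 0.06 against wild-type library 1 and −0.58 and −0.64 against library 2. Over all genes they were 0.26 and 0.15 against library 1 and −0.0050 and −0.13 against library 2. The members' median was thus below 0 only against wild-type library 2, and below that of all genes against both. Without wild-type library 2 the hst3Δ hst4Δ median was 0.02 over the members and 0.19 over all genes, with 41 of 60 below the latter, and without library 1 it was −0.62 and −0.09. The rtt109Δ median was −0.47 without wild-type library 2, −1.07 without library 1, −0.40 without rtt109Δ library 1 and −1.16 without rtt109Δ library 2. Without wild-type library 1, limma called 5 members lower in rtt109Δ, namely UTP8, UTP25, RRP9, RRP45 and NOP13, where it called 2.49% of all genes lower. The lone wild-type library is there assumed to vary like the other groups.

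**Figure D4:**
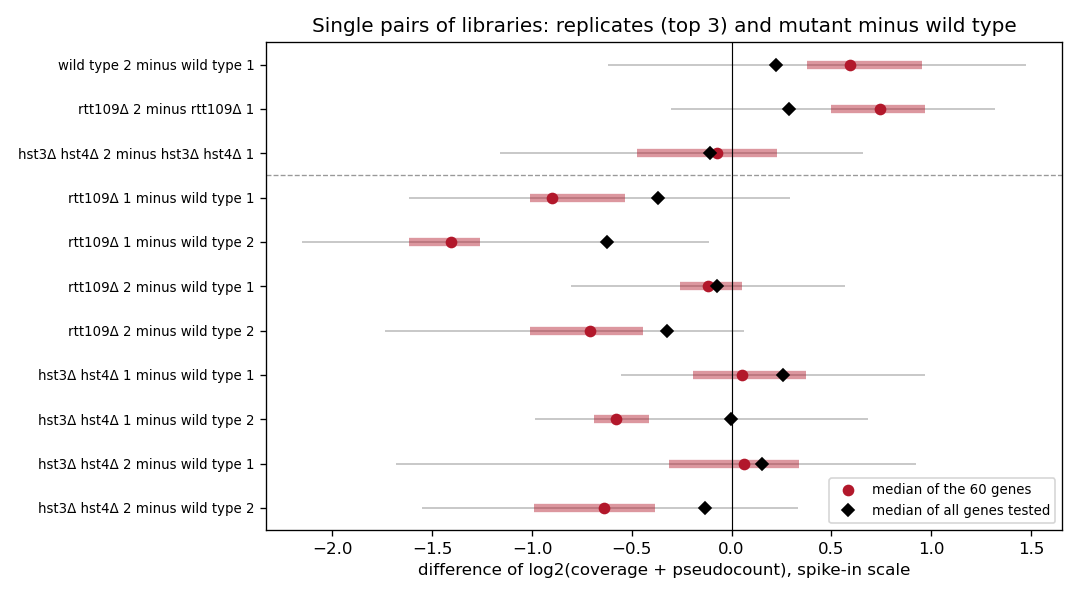
Differences of log2 coverage (x axis) for single pairs of libraries (y axis): replicates above the dashed line, mutant minus wild type below it. Circles are the median of the 60 genes, thick bars their quartiles, thin lines their range and diamonds the median of all genes; the hst3Δ hst4Δ circles lie at 0.05 and 0.06 against wild-type library 1 and at −0.58 and −0.64 against library 2.

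**Figure D5:**
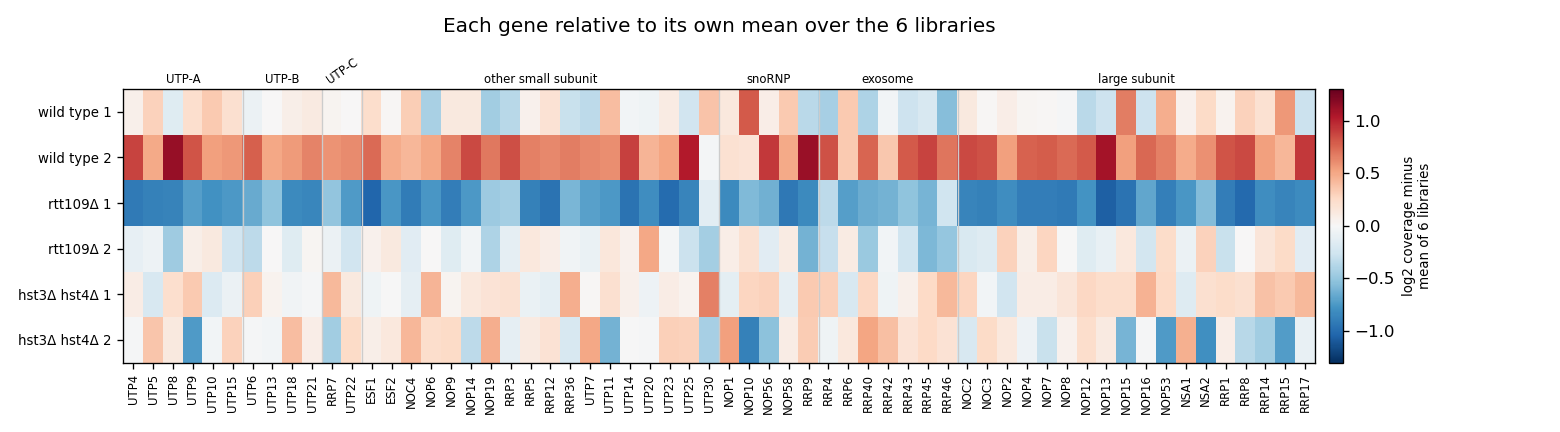
Log2 coverage of each of the 60 genes (columns, grouped by role) in each library (rows) minus that gene's mean over the 6 libraries; red is higher and blue lower. Wild-type library 2 is the reddest row, with the highest value for 53 of 60 genes, and rtt109Δ library 1 the bluest, with the lowest for 54.

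The authors also deposited the same coverage scaled to a mean of 1, which removes differences in total poly(A) coverage relative to the spike-in. Total spike-in scaled coverage was 474278 and 611350 in the rtt109Δ libraries, against 678558 and 784679 in wild type and 763469 and 654763 in the hst3Δ hst4Δ libraries. On the mean-1 scale the members' rtt109Δ median was −0.37, against 0.05 for all genes, and 59 of 60 stayed below 0, with UTP20 at 0.08. None was called, against 4.89% of all genes. Both rtt109Δ libraries lay below both wild-type libraries for 21 of 60, against 18.4%. For hst3Δ hst4Δ the mean-1 median was −0.22, against 0.08, with none called (1.84% of all genes) and 17 of 60 below wild type in every library (7.22%). For the mutants against each other it was 0.12, against 0.04, with none called (0.499%) and 12 of 60 with hst3Δ hst4Δ libraries above (20.6%). The distance between members and all genes was thus about the same on both scales in the rtt109Δ comparison, while the shift common to all genes was left out on the mean-1 scale.

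By name family the rtt109Δ medians were −0.95 for NOC, −0.81 for UTP and for NOP, −0.76 for ESF, −0.71 for RRP and −0.62 for NSA. The hst3Δ hst4Δ medians ran from −0.42 (NSA) and −0.37 (NOP) through −0.32 (NOC and ESF) and −0.27 (UTP) to −0.18 (RRP). The families overlapped throughout, with UTP alone spanning −1.15 to −0.34, and no test of the difference between families was made. An unadjusted p under 0.05 in the rtt109Δ comparison was found for 14 of 18 UTP, 9 of 17 NOP, 6 of 18 RRP, 3 of 3 NOC, 1 of 2 ESF and 0 of 2 NSA genes, against 14.4% of all genes, and for none of them on the mean-1 scale. PAC was present in 16 of 17 NOP, 14 of 18 UTP and 13 of 18 RRP promoters, and RRPE in 14, 15 and 10 of them. A difference between families in these elements was not tested. Members with both elements had a rtt109Δ median of −0.82, and those without both had −0.65. The 3 members with neither element had −0.81, against −0.80 for the members with at least one. Over all genes the medians were −0.65 with both and −0.35 without, and in hst3Δ hst4Δ −0.18 and 0.05.

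Genes of the same pathway under other names are set beside the members here. In rtt109Δ these medians were −0.74 for 33 processome genes, −0.63 for 11 late small-subunit factors, −0.76 for 56 large-subunit factors, −0.62 for 12 snoRNP genes, −0.57 for 11 genes of the exosome and of TRAMP, which tails RNAs for it, and −0.68 for 15 genes of RNA polymerase I. In hst3Δ hst4Δ they were −0.26, −0.13, −0.24, 0.04, −0.16 and −0.04. Of these genes only TSR2, a chaperone that loads a small-subunit protein, passed the threshold against wild type. Over all genes limma called 3.44% in rtt109Δ, 2.48% in hst3Δ hst4Δ and 1.38% between the mutants. TSR2 was at 6.71 and 7.30 in wild type, 1.04 and 2.60 in rtt109Δ and 4.14 and 1.08 in hst3Δ hst4Δ. It fell by 2.05 ± 0.44 (adjusted p = 0.00303) and by 1.69 ± 0.44 (adjusted p = 0.0218) on the log2 scale. LCP5, a processome gene, was higher in hst3Δ hst4Δ than in rtt109Δ by 1.80 ± 0.40 (adjusted p = 0.0105), with values of 2.32 and 3.89 against 0.538 and 1.24. LCP5 and NSA2 are neighbours transcribed away from each other. Of 9 regulators of ribosome genes ABF1, a general regulatory factor, fell in rtt109Δ, by 1.26 ± 0.36 (adjusted p = 0.0391). On the mean-1 scale TSR2, LCP5 and ABF1 were no longer called. The median of the regulators was −0.41 in rtt109Δ and −0.10 in hst3Δ hst4Δ.

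Gene groups known to follow growth and stress were measured in the same fit. The median of 130 ribosomal protein genes was −0.81 in rtt109Δ, with 2 called lower (0.94% of all genes). In hst3Δ hst4Δ it was −0.12, with none called (2.48% of all genes in either direction). Of 20 general stress genes 9 were called higher in rtt109Δ and 11 in hst3Δ hst4Δ, with medians of 1.13 and 1.35. Of all 5211 genes tested 130 and 122 were called higher. On the mean-1 scale no ribosomal protein gene was called in either mutant (4.89% and 1.84% of all genes). There 11 and 7 stress genes were called higher, against 245 and 93 of all genes. The part of these groups in the members' values was not tested.

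Coverage along the members leaned to the end of the ORF. With each ORF cut into 3 equal parts, the median log2 ratio of the first part over the last was between −0.92 and −0.66 in the 6 libraries for 59 members, and between −0.88 and −0.57 for all genes. The longest members leaned most. RRP5, an RNA-binding processome protein, had ratios of −3.20 and −5.13 in wild type, −4.22 and −3.68 in rtt109Δ and −5.36 and −5.75 in hst3Δ hst4Δ. UTP20, with an ORF of 7482 bases, had −1.56 and −4.46, then −2.34 and −2.51, then −3.47 and −4.38. For both genes the wild-type libraries differed from each other by more than the libraries of either mutant did, and the mean over such an ORF rests mostly on its last part. At the other end UTP30 and RRP15 leaned to the start, at a mean of 1.65 and 1.60. No member was called in this ratio (limma called 0%, 0% and 0.0407% of 4918 genes in the rtt109Δ, hst3Δ hst4Δ and mutant-to-mutant comparisons). Without adjustment 0, 4 and 4 of 59 members had a p under 0.05, against 147, 458 and 458 of all genes (2.99%, 9.31% and 9.31%). In hst3Δ hst4Δ against wild type these were RRP5 (−1.39 ± 0.50), UTP22 (−1.23 ± 0.46), RRP12 (−1.19 ± 0.40) and NOP14 (−0.56 ± 0.25), and between the mutants RRP5, UTP22, RRP12 and UTP10, all with relatively less coverage of the first part in hst3Δ hst4Δ. For RRP5, UTP22 and RRP12 wild-type library 1 leaned least to the end of the 6 libraries. The UTP22 ratio was −1.43 there, −3.13 in wild-type library 2 and −3.24 and −3.78 in hst3Δ hst4Δ. Their changes against wild type thus depend on wild-type library 1. A fit of the mutants alone called 5 of 59 members between them (4.37% of all genes). Leaving out either wild-type library gives that same fit between the mutants. Without wild-type library 1 the members' median rtt109Δ change in this ratio was −0.15, against −0.07 over all genes. Without wild-type library 2 the median hst3Δ hst4Δ change was −0.09, against −0.16 over all genes. Against a lone wild-type library some members also passed the threshold in this ratio. The spread of a lone library is assumed, so these calls are not counted here. From the last 500 bases of each ORF alone, the members' medians were −0.77 in rtt109Δ and −0.17 in hst3Δ hst4Δ. Over all genes they were −0.35 and 0.12. No member was called there. Of 5211 genes limma called 76 higher and 19 lower in rtt109Δ, and 77 higher and 2 lower in hst3Δ hst4Δ.

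Antisense coverage of the members was low. It made up a median of 0.175% to 1.77% of both strands in the 6 libraries for 57 members, against 0.383% to 2.05% for all genes. The highest mean shares were 8.51% for NOP8, 8.45% for RRP1 and 8.11% for UTP30. RRP1 antisense coverage was 0.325 and 0.413 in wild type, 0.244 and 0.116 in rtt109Δ and 1.16 and 0.742 in hst3Δ hst4Δ. The hst3Δ hst4Δ libraries were above and the rtt109Δ libraries below wild type. No member was called (0% of 5012 genes in each comparison), and 0, 1 and 3 members had an unadjusted p under 0.05, against 270, 212 and 505 of all genes. Without wild-type library 2 these counts were 24, 9 and 9 members, against 998, 447 and 693 of all genes, with none called. The members' rtt109Δ antisense median was −0.28 with all libraries, −0.64 without wild-type library 2 and 0.08 without library 1, against −0.17, −0.39 and 0.08 over all genes. The members' median antisense coverage was 0.0105 to 0.0517 in the 6 libraries, below the 0.0587 added before taking logs. Such changes therefore lie near the floor and depend on the pseudocount. With a pseudocount 10 times larger the members' rtt109Δ median was −0.04, against −0.03 over all genes.

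On the chromosomes the members were mostly scattered. Of 60, 9 (15%) had a neighbouring ORF that was a member or another gene of the pathway lists, against 6.15% of all ORFs. RRP15 and NOC4 are the only adjacent members and face each other. Their rtt109Δ values were −0.80 and −0.90, and their hst3Δ hst4Δ values −0.69 and −0.22.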

How the data were processed

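Poly(A) RNA coverage of 6 libraries was used, with groups and replicate numbers from the titles. Per the file headers, the authors deposited coverage per strand in 50-base bins, scaled to the fission yeast spike-in, and a copy normalized to 1; neither is a count, so depth in reads is unknown. A deposited replication timing score, per the file headers of unstated unit, was not used. Base calling used CASAVA 1.7.0, per the submitters' processing notes; the sources used here give neither aligner nor build. In 4.84% of 240976 bins a letter replaces the value, and these were left out. ORFs are the table's own; names, and the genome for promoters, came from RefSeq R64.

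A gene's value was the mean sense coverage over inner bins, without introns and bins shared with another ORF of that strand. Genes were tested as log2(value + 0.0587), where 0.0587 is percentile 5 of values above 0, so changes of low genes are understated. The lowest 10% (579 genes) were dropped. All 6 libraries entered one limma 3.58.1 fit in R 4.3.3 with 3 residual and 37.7 prior degrees of freedom; the procedure was tested on simulated data. Python 3.11.15 was used for tables and figures. Replicates correlated across genes with r of 0.951 to 0.973.

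Members and gene lists were chosen with earlier results of these data known, so lists are described, not tested. Members described library by library were the lowest and highest fold change per family and mutant, the 3 highest and 3 lowest wild-type levels and all members of families of 3 or fewer; RRP6, the fold changes of further members and the examples of coverage along the ORF and antisense were chosen after values were seen. Alternatives covered scaling, pseudocount, filter, bins, ORF length, a replicate block and each library left out.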

Additional observations from a re-analysis of the deposited data

How the results depend on the processing

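No member was called in any of the 3 comparisons under another scaling, pseudocount, filter, choice of bins or length correction. The same held with a replicate block or a fit of 2 groups alone. Some of these settings called almost no gene, so 0 members was close to fixed there. For rtt109Δ, hst3Δ hst4Δ and between the mutants, a pseudocount 10 times larger called 2, 1 and 0 genes higher and 0 lower. Without the filter 3, 1 and 1 were called higher and 1, 1 and 0 lower. The fit of hst3Δ hst4Δ and wild type alone called 1 higher and 1 lower. Leaving out either rtt109Δ library also left almost no gene called in any comparison, so 0 members was close to fixed there too. Leaving out single libraries gave 0 to 5 called members for rtt109Δ against wild type (5 without wild-type library 1) and 0 in the other comparisons, with member medians from −1.16 to −0.40 for rtt109Δ, from −0.62 to 0.02 for hst3Δ hst4Δ and from 0.15 to 0.89 between the mutants. With the replicate block, calls over all genes went from 179 to 101, from 129 to 95 and from 72 to 14, and members called stayed at 0. Deviations of same-numbered libraries correlated across genes with r = −0.227 (wild type and rtt109Δ), 0.0646 (wild type and hst3Δ hst4Δ) and 0.222 (the mutants), not all above 0.1, and no label ties the numbers, so they were not taken as pairs. The last 10 bins of the ORF were chosen as an alternative after seeing the data.

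Counts of members whose libraries do not overlap also moved, with shares of all genes in parentheses. For rtt109Δ below wild type the 36 (48.6%) became 21 on the mean-1 scale (18.4%) and 36 to 58 without single libraries (69.4% for the 58 without wild-type library 1, 70.4% for the 58 without rtt109Δ library 2). For hst3Δ hst4Δ below wild type the 11 (8.9%) became 17 on the mean-1 scale (7.22%), 30 with median centring (14.1%) and with quantile normalization (17.2%), 19 with the median over bins (14.3%) and 11 to 56 without single libraries (36.6% for the 56, without wild-type library 1). For hst3Δ hst4Δ above rtt109Δ the 26 (51.1%) became 12 on the mean-1 scale (20.6%), 14 with median centring (22.3%), 13 with quantile normalization (21.4%) and 26 to 56 without single libraries (74.9% for the 56, without rtt109Δ library 2). Fewer samples separate more easily, by construction. The ratio of first to last part of the ORF gave 5 members between the mutants in a fit of those groups alone (4.37% of all genes). Leaving out either wild-type library gives that same fit. Against a lone wild-type library some members also passed the threshold, and these calls are not counted here. Without single libraries the members' median change in this ratio ran from −0.18 to 0.00026 for rtt109Δ. For hst3Δ hst4Δ it ran from −0.19 to −0.09.

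Among the 21 members described by library, 24 of the recomputed fold changes against wild type changed sign, none of them past the threshold. For rtt109Δ these were NOP10 with quantile normalization (0.026) and UTP20 on the mean-1 scale (0.084) and with cyclic loess (0.039). Without single libraries the rtt109Δ values ran from −1.12 to 0.019 for NOP19, −0.88 to 0.042 for NOP6, −1.07 to 0.17 for RRP46 and −1.003 to 0.32 for UTP20. For hst3Δ hst4Δ RRP9 was 0.0053 on the mean-1 scale and 0.0025 with the length trend removed. Without single libraries the hst3Δ hst4Δ values ran from −0.41 to 0.057 for ESF2, −0.72 to 0.084 for NOC3, −0.50 to 0.052 for NOC4, −0.36 to 0.78 for NOP19, −0.17 to 0.76 for NOP6, −0.44 to 0.20 for NSA1, −0.39 to 0.86 for RRP46, −0.79 to 0.69 for RRP9, −0.49 to 0.019 for UTP20, −0.60 to 0.49 for UTP30, −0.37 to 0.59 for UTP7 and −0.96 to 0.33 for UTP8. The cause was not tested.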
